A study of Homo sapiens with 9 samples.

Results

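The B4GALT and B3GNT enzymes of lactosamine extension were followed as 10 genes, B4GALT1 to B4GALT6, B3GNT2, B3GNT3, B3GNT5 and B3GNT7. They were found by matching the RefSeq transcript that each probe set of a glycosylation-focused Affymetrix array carries to a gene symbol. Each gene had 1 probe set, which gave 10 of the 1259 probe sets in the deposited table and 10 of its 927 named genes, and none was left out by a filter. The array compared 3 groups of human colon carcinoma cells with 3 arrays each, 9 in all. T84 cells had received interferon gamma at 100 U/ml for 24 h, and their passage and confluence were not among the labels. Untreated T84 cells were at passage 68 and untreated Caco-2 cells at passage 37, both at 90% confluence. Line and passage cannot be told apart. The study asked which glycosylation genes accompany a sialylated epitope of the CD44v6 adhesion molecule, which interferon gamma raises in T84 cells and which Caco-2 cells lack. Whether the 3 samples of a group were grown separately is not among the labels, and p-values therefore reflect only how much these samples scattered, which may be a technical spread.

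N-acetyllactosamine is the galactose and N-acetylglucosamine unit from which the outer arms of N-glycans, O-glycans and glycolipids are built. B4GALT enzymes add galactose to a terminal N-acetylglucosamine, and B3GNT enzymes add N-acetylglucosamine to a terminal galactose, so that the families working in turn make poly-N-acetyllactosamine chains. Those chains carry sialic acid, fucose and sulfate caps, and are bound by galectins. In intestinal epithelium they form part of the blood group and Lewis structures of mucins and membrane glycoproteins.

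Levels are the deposited log2 signals, on which a difference of 1 is a doubling. Differences were tested with limma over all 1259 probe sets, and a probe set was called at a Benjamini-Hochberg adjusted p below 0.05. The labels were borne out by the interferon-induced genes, since CXCL9 was 6.12, CXCL10 5.11, CD74 3.54 and ICAM1 3.17 log2 units higher in treated than in untreated T84 cells. CD44 was 4.39 log2 units higher in treated T84 and 4.68 in untreated T84 than in Caco-2 cells. Of 12 listed intestinal epithelial markers 5 were measured, with a mean log2 signal per array of 9.26 to 9.40 in T84 and 6.91 to 7.25 in Caco-2 cells. LGALS4, FUT3, MUC13 and MUC2 were called higher in T84 cells of both groups, and the membrane mucin MUC17 lower, at -0.57 and -0.49. The 4 measured leukocyte markers averaged 5.33 to 5.61 per array, with CD22 called higher in T84 than in Caco-2 cells. The 8 measured fibroblast or endothelial markers averaged 5.23 to 5.29 in T84 and 5.49 to 5.62 in Caco-2 cells, and single markers of the list were well above the lower quartile of all signals of 5.33, such as BGN at 7.86 to 8.65 and PECAM1 at 6.47 to 7.28. Array medians lay between 6.704 and 6.804, and the number of arrays limits the precision, with a median standard error of a difference of 0.077.

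Untreated T84 replicate 3 and Caco-2 replicate 1 stood apart from the other arrays of their groups, and treated T84 replicate 3 deviated in the same direction. These 3 are called the arrays that stood apart. The first component of the deviations from the group means held 70.9% of their variance. Along it treated T84 replicate 3 scored -2.44, untreated T84 replicate 3 -5.49 and Caco-2 replicate 1 -9.44, and the other 6 scored 0.06 or more. The treated T84 arrays were evenly spaced, at 2.39, 0.06 and -2.44, so replicate 3 lay about as far out as replicate 1. The deviations of the 3 arrays correlated with one another at 0.484 to 0.756 over the 1259 probe sets. Results that rest on them are given with and without them, a choice made after seeing the data. Leaving them out narrows the spread of genes that deviate on them, so p-values without them are descriptive only.

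Promoters from RefSeq on GRCh38.p14, each 250 bases before to 50 bases after a transcript start, were listed for 9 of the 10 genes, 13 promoters in all. The gamma-activated sequence, a motif of interferon gamma response genes, was searched on both strands as TTCNNNGAA. It was in 3 of the 13 promoters, those of B4GALT5 and B3GNT5 and 1 of the promoters of B4GALT2, and in 7.66% of all 35116 promoters. The interferon-stimulated response element, searched as GAAA and GAAA parted by NN, was in 0 of the 13 and in 3.57% of all. The GC box GGGCGG was in 10 of the 13 and in 45.0% of all, and the TATA box letters TATAAA were in 0 of the 13 and in 11.5% of all. GC content of the 13 ranged from 41.3% to 78.3%, against a median of 58.7% over all promoters. The promoters of B4GALT5 and B3GNT5 are shown because they hold the gamma-activated letters, and that of B3GNT3 because this gene differed most clearly between the lines. They lie at chr20:49713829-49714128 on the minus strand, chr3:183253003-183253302 on the plus strand and chr19:17794888-17795187 on the plus strand. Each is written 5′ to 3′ in the direction of its gene, and capitals mark matches to TTCNNNGAA or GGGCGG on either strand.
B4GALT5: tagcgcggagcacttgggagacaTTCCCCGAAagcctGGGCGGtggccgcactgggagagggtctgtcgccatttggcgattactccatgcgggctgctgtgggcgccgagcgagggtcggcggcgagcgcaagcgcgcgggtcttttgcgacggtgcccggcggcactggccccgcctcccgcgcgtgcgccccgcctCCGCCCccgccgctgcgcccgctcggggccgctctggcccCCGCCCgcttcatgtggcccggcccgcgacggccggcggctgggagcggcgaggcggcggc
B3GNT5: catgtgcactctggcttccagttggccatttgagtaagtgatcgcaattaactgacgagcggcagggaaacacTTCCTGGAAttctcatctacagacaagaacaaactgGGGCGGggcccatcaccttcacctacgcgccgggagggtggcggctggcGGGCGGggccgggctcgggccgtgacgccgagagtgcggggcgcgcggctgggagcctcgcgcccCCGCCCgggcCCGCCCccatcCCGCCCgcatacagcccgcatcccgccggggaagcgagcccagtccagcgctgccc
B3GNT3: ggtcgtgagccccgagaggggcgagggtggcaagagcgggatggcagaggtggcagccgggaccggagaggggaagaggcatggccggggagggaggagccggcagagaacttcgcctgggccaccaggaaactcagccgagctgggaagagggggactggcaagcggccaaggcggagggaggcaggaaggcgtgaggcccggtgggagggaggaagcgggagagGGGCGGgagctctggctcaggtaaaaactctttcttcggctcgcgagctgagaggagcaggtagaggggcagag
The B4GALT5 promoter held 1 gamma-activated match and 3 GC boxes, that of B3GNT5 held 1 and 5, and that of B3GNT3 held 0 and 1. These matches describe letters only, and no binding was measured.

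Interferon gamma moved none of the 10 enzymes past the threshold in T84 cells. The count was 0 of 10 at an adjusted p below 0.05 in limma and also 0 of 10 at an unadjusted p below 0.05, where 10.2% (4.37% higher and 5.8% lower) and 19.5% of all probe sets passed. The median log2 difference, treated minus untreated, was -0.016 for the 10 and -0.012 for all probe sets, and the median absolute difference was 0.142 against 0.073. For 8 of the 10 the 95% interval lay wholly within 0.5 log2 units of no difference, as it did for 970 of the 1259 probe sets. The exceptions were B4GALT6 and B3GNT5, whose replicates were spread most widely.

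**Figure D1:**
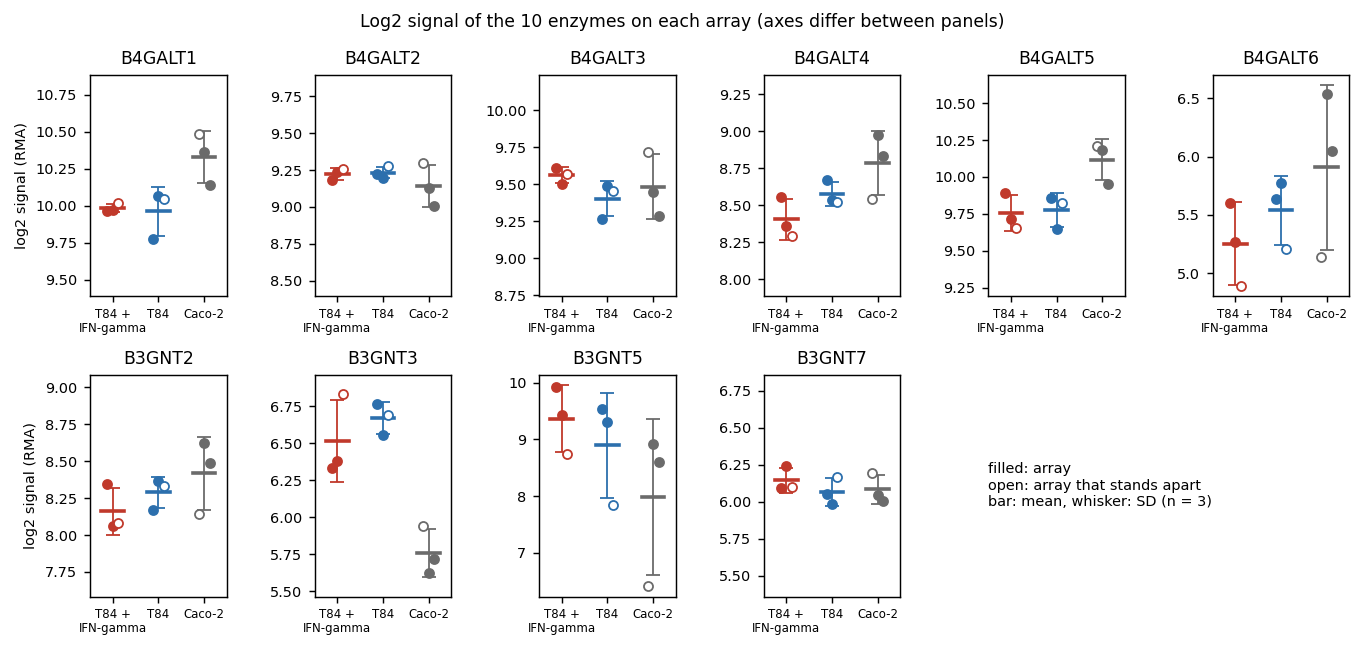
Log2 signal of the 10 enzymes on each of the 9 arrays, with 1 panel per gene, filled points for arrays, open points for the 3 arrays that stood apart, and bars and whiskers for the mean and SD of each group (n = 3). B3GNT3 was higher on all 6 T84 arrays (6.33 to 6.83) than on the Caco-2 arrays (5.62 to 5.94), and B3GNT5 ran from 6.41 to 9.92.

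B4GALT1, the widely expressed galactosyltransferase that also forms lactose synthase in the mammary gland, read 9.96, 9.97 and 10.02 in treated T84 and 9.77, 10.07 and 10.05 in untreated T84. The treated values lay within the range of the untreated ones, and the log2 difference was 0.02 (95% interval -0.22 to 0.26; limma adjusted p = 0.963, n = 3 per group). B4GALT2, which like B4GALT1 acts on N-glycan antennae, read 9.18, 9.23 and 9.26 in treated and 9.23, 9.20 and 9.28 in untreated T84. Its difference was -0.01 (interval -0.17 to 0.16). B4GALT1 and B4GALT2 changed sign under small changes of processing, so no direction is given for either.

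B4GALT3, another N-glycan galactosyltransferase, was the one member whose treated and untreated T84 groups did not overlap. It read 9.61, 9.50 and 9.57 with interferon gamma and 9.27, 9.49 and 9.45 without, a difference of 0.16 (interval -0.09 to 0.41; limma adjusted p = 0.54, n = 3 per group). Over all probe sets 27.5% had groups that did not overlap, so 1 of 10 was below that share. The lowest treated value exceeded the highest untreated one by a margin smaller than the spread within either group.

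B4GALT4, which prefers sulfated N-acetylglucosamine as in keratan sulfate, read 8.56, 8.36 and 8.29 in treated and 8.67, 8.54 and 8.52 in untreated T84. The groups overlapped through the first treated array, and the difference was -0.17 (interval -0.44 to 0.09; limma adjusted p = 0.532, n = 3 per group). B4GALT5, a lactosylceramide synthase that starts most glycolipid chains, read 9.89, 9.71 and 9.66 with and 9.86, 9.65 and 9.82 without interferon gamma, a difference of -0.02 (interval -0.24 to 0.19). The promoter with the gamma-activated letters shown above thus belonged to a gene whose groups were interleaved. B4GALT6, the second lactosylceramide synthase, was dim and read 5.60, 5.27 and 4.89 in treated and 5.63, 5.77 and 5.21 in untreated T84. Its difference of -0.29 had an interval from -1.08 to 0.51.

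B3GNT2, the main poly-N-acetyllactosamine synthase, read 8.34, 8.06 and 8.08 in treated and 8.17, 8.37 and 8.33 in untreated T84, a difference of -0.13 (interval -0.43 to 0.17; limma adjusted p = 0.735, n = 3 per group). B3GNT3, which extends the core of mucin-type O-glycans, read 6.33, 6.38 and 6.83 with and 6.77, 6.55 and 6.69 without interferon gamma, a difference of -0.16 (interval -0.48 to 0.17). Treated T84 replicate 3 held the highest of the 6 values, and its fellow treated arrays held the lowest. Without the 3 arrays that stood apart the B3GNT3 difference was -0.30 (limma adjusted p = 0.0976).

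B3GNT5, which makes lactotriaosylceramide and so opens the lacto and neolacto glycolipids, read 9.92, 9.44 and 8.74 in treated and 9.55, 9.32 and 7.84 in untreated T84. In both groups replicate 3 was the lowest by a wide margin. The difference was 0.47, with an interval from -1.17 to 2.11 (limma adjusted p = 0.842, n = 3 per group). Without the 3 arrays that stood apart it was 0.25 (limma adjusted p = 0.562). The interval spans more than 3 log2 units, so these arrays set little limit on a change of B3GNT5. B3GNT7, which acts on sulfated keratan chains, read 6.09, 6.25 and 6.10 with and 6.05, 5.98 and 6.17 without interferon gamma. Its difference was 0.08 (interval -0.09 to 0.25).

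Called against Caco-2 cells were 4 of the 10 enzymes with treated and 3 with untreated T84 cells, where 45.6% and 43.7% of all probe sets passed. With treated cells, line and treatment cannot be told apart. Against Caco-2 cells, B3GNT3 was higher in T84 cells of both groups, and B4GALT1 and B4GALT5 were lower in both. B4GALT4 was lower only by the test of treated T84 cells, and its difference between the 2 T84 groups, given above, did not pass. The called differences were small, from 1.26-fold to 1.88-fold. Of the 8 fibroblast or endothelial markers, BGN, LUM, PDGFRB and PECAM1 were also called lower in both T84 groups, by 1.38-fold to 1.65-fold. The other 4, DCN, SELE, VCAM1 and CD34, were called in neither comparison. LUM, with the largest fold, read only 3.54 to 4.75, below the lower quartile of all values of 5.33. The 4 called differences are at least as large as the lower B4GALT differences, and their part in those was not tested.

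With treated T84 cells, 4 of 10 passed, 1 higher and 3 lower, where 45.6% of all probe sets passed, 19.4% higher and 26.2% lower. With untreated T84 cells, 3 of 10 passed, 1 higher and 2 lower, where 43.7% passed, 19.5% higher and 24.2% lower. Groups did not overlap for 3 of the 10 in each comparison, against 53.5% and 49.6% of all probe sets. The counts called in either direction and the counts of groups without overlap were below the shares of the array as a whole, and the 3 of 10 called lower with treated cells were slightly above theirs. Median log2 differences were -0.097 for the 10 and 0.022 for all probe sets with treated cells, and -0.106 and 0.018 with untreated cells. Differences of 1 log2 unit or more were found for 1 of 10, B3GNT5 with treated cells, and for 0 of 10 with untreated cells, against 17.6% and 15.8% of all probe sets. Both comparisons use the same 3 Caco-2 arrays, so their values are given side by side and do not support one another.

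**Figure D2:**
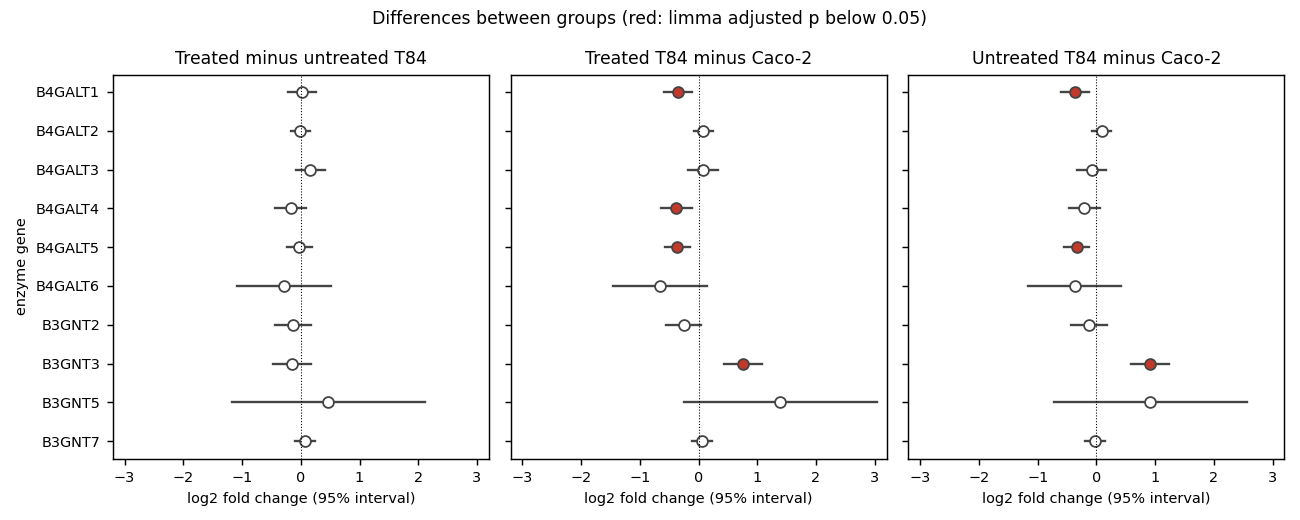
Log2 differences of the 10 enzymes in the 3 comparisons, with points for the limma estimate, red at an adjusted p below 0.05, and bars for the 95% interval (n = 3 per group). B3GNT3 lay at 0.76 and 0.91 against Caco-2 cells, and the B3GNT5 intervals, up to 3.03, were the widest.

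B3GNT3 read 5.94, 5.62 and 5.72 in Caco-2 cells, below all 6 T84 values given above. These Caco-2 values were dim, not far above the lower quartile of all values of 5.33, so the size of the fold is uncertain. Its group means were 6.67 ± 0.11 in untreated T84, 6.52 ± 0.27 in treated T84 and 5.76 ± 0.16 in Caco-2 cells (SD, n = 3 each). The level was 1.69-fold higher in treated T84 (95% interval 1.35 to 2.12; limma adjusted p = 0.00214) and 1.88-fold higher in untreated T84 (1.5 to 2.36; adjusted p = 0.000791) than in Caco-2 cells. Under all 20 alternative settings tried, B3GNT3 stayed past the threshold in both comparisons, with log2 differences of 0.599 to 1.03 and 0.843 to 1.11. Without the 3 arrays that stood apart they were 0.69 and 0.99.

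B4GALT1 read 10.48, 10.36 and 10.14 in Caco-2 cells, above every T84 array. Its means were 10.33 ± 0.17 in Caco-2, 9.98 ± 0.03 in treated T84 and 9.96 ± 0.16 in untreated T84 (SD, n = 3 each), and the 2 T84 groups were not distinguished. The level was 1.27-fold lower in treated T84 (95% interval 1.08 to 1.5; limma adjusted p = 0.0242) and 1.29-fold lower in untreated T84 (adjusted p = 0.0195). The calls were near the threshold, and a fit with 1 array fewer, which has less precision, often lost them. Leaving out single arrays kept the log2 difference at -0.439 to -0.268 with treated and -0.461 to -0.273 with untreated cells. Against treated T84, the adjusted p passed 0.05 when treated replicate 1, 2 or 3 or Caco-2 replicate 1 or 2 was left out, at 0.0667, 0.0683, 0.0509, 0.0612 and 0.069. Against untreated T84 it did so without untreated replicate 1, at 0.0593, and without Caco-2 replicate 2, at 0.0592. Without the 3 arrays that stood apart the log2 differences were -0.28 (adjusted p = 0.101) and -0.33 (adjusted p = 0.0677).

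B4GALT5 was likewise highest in Caco-2 cells, with 10.21, 10.18 and 9.96 there and every T84 value below 9.90. Means were 10.12 ± 0.14 in Caco-2, 9.78 ± 0.11 in untreated T84 and 9.75 ± 0.12 in treated T84 (SD, n = 3 each). It was 1.28-fold lower in treated T84 (95% interval 1.1 to 1.49; limma adjusted p = 0.0131) and 1.26-fold lower in untreated T84 (adjusted p = 0.0192). The call with treated cells was lost without treated replicate 3 (adjusted p = 0.0508), and that with untreated cells without untreated replicate 2 (0.0713) or Caco-2 replicate 2 (0.0661). Without the 3 arrays that stood apart the log2 differences were -0.27 (adjusted p = 0.116) and -0.32 (adjusted p = 0.076).

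B4GALT4 read 8.54, 8.97 and 8.83 in Caco-2 cells, and its lowest Caco-2 value fell among the T84 values. Its means were 8.78 ± 0.22 in Caco-2, 8.58 ± 0.08 in untreated T84 and 8.40 ± 0.14 in treated T84 (SD, n = 3 each). The level was 1.3-fold lower in treated T84 (95% interval 1.08 to 1.56; limma adjusted p = 0.0249), while the untreated difference was -0.21 (interval -0.47 to 0.06; adjusted p = 0.19). The treated call was lost without treated replicate 2 (0.0763) or 3 (0.0868) or Caco-2 replicate 2 (0.0805) or 3 (0.0759). Caco-2 replicate 1 weighed the other way, since without it the untreated difference was -0.33 (adjusted p = 0.0182). Without all 3 arrays that stood apart both were called, at -0.44 (adjusted p = 0.00981) and -0.30 (adjusted p = 0.0438).

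The lower B4GALT calls were also not made on a scale set by ribosomal protein genes. When arrays were centred on 50 ribosomal protein probe sets in place of the deposited scale, the median of all probe sets shifted. It went from 0.022 to 0.293 with treated and from 0.018 to 0.212 with untreated cells. The ribosomal probe sets thus read higher in Caco-2 cells on the deposited scale. This centring moves all probe sets of an array alike, which by itself shrinks the lower B4GALT differences. The loss of their calls on this scale is therefore not a test of them. On that scale the 10 enzymes gave 4 higher and 0 lower calls with treated cells, B4GALT2, B4GALT3, B3GNT3 and B3GNT7. With untreated cells they gave 2 higher and 0 lower, B4GALT2 and B3GNT3. Of all 1259 probe sets, 795 were then higher and 227 lower with treated cells, and 675 higher and 232 lower with untreated cells. The higher calls thus followed a shift of the whole array. B4GALT1 then stood at -0.07 (limma adjusted p = 0.546), B4GALT4 at -0.11 (0.409) and B4GALT5 at -0.09 (0.323) with treated cells. B3GNT3 was thus the one member called in the same direction on the deposited and the ribosomal scale. Centring on array medians changed the array less, with 569 and 564 of all probe sets called, against 574 and 550 as deposited.

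The other members did not pass in either comparison with Caco-2 cells. B4GALT2 read 9.29, 9.13 and 9.01 in Caco-2 cells, with log2 differences of 0.08 (interval -0.08 to 0.25) and 0.09 (-0.07 to 0.26) for treated and untreated T84. B4GALT3 read 9.72, 9.45 and 9.29, so that Caco-2 cells held both its highest and nearly its lowest value, with differences of 0.08 (-0.17 to 0.33) and -0.08 (-0.33 to 0.17). B3GNT2 read 8.14, 8.62 and 8.49, and differed by -0.26 (-0.56 to 0.05) and -0.13 (-0.43 to 0.17).

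B3GNT7 was level across the study, with 6.19, 6.05 and 6.01 in Caco-2 cells and differences of 0.06 (-0.11 to 0.23) and -0.02 (-0.19 to 0.15). Its 9 values all lay between 5.98 and 6.25. Several of these outcomes changed when Caco-2 replicate 1 was left out. Without it, B4GALT2 was called higher at 0.158 (limma adjusted p = 0.0393) and 0.167 (0.0343), and B3GNT2 lower at -0.395 (0.0134) with treated cells. The counts of members called rose to 6 in each comparison. The whole array rose too, to 640 and 600 of the 1259 probe sets called, from 574 and 550 with all arrays.

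B4GALT6 and B3GNT5 differed more between arrays of one group than between group means. B4GALT6 read 5.14, 6.54 and 6.05 in Caco-2 cells, and its replicate 1 was lower than most T84 values while the other two exceeded all of them. Its means were 5.91 ± 0.71 in Caco-2, 5.54 ± 0.30 in untreated T84 and 5.25 ± 0.36 in treated T84 (SD, n = 3 each). The log2 differences from Caco-2 were -0.66 (interval -1.45 to 0.13) with treated and -0.37 (-1.17 to 0.42) with untreated cells. Without Caco-2 replicate 1 they were -1.04 (limma adjusted p = 0.00926) and -0.76 (0.0399), and without all 3 arrays that stood apart -0.86 (0.0105) and -0.59 (0.0454). The 3 arrays were picked by deviations within groups, which were wide for B4GALT6. Leaving them out narrows its spread, so the p-values without them do not test a difference.

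B3GNT5 read 6.41, 8.93 and 8.61 in Caco-2 cells, so that 1 array lay more than 2 log2 units below the others. Group means ran from 9.37 ± 0.59 in treated T84 over 8.90 ± 0.93 in untreated T84 to 7.98 ± 1.37 in Caco-2 cells (SD, n = 3 each), and no neighbours in that order differed beyond their spread. The differences from Caco-2 cells were 1.39 (interval -0.25 to 3.03; limma adjusted p = 0.152) and 0.92 (-0.72 to 2.56; adjusted p = 0.354). Without the 3 arrays that stood apart they were 0.91 (limma adjusted p = 0.00953) and 0.66 (limma adjusted p = 0.0341), smaller but past the threshold. Those arrays were picked by deviations within groups, which were among the largest for B3GNT5. Leaving them out narrows its spread, so these p-values do not test a difference from Caco-2 cells. In the remaining 6 arrays the T84 values of 9.32 to 9.92 lay above the Caco-2 values of 8.61 and 8.93.

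**Figure D3:**
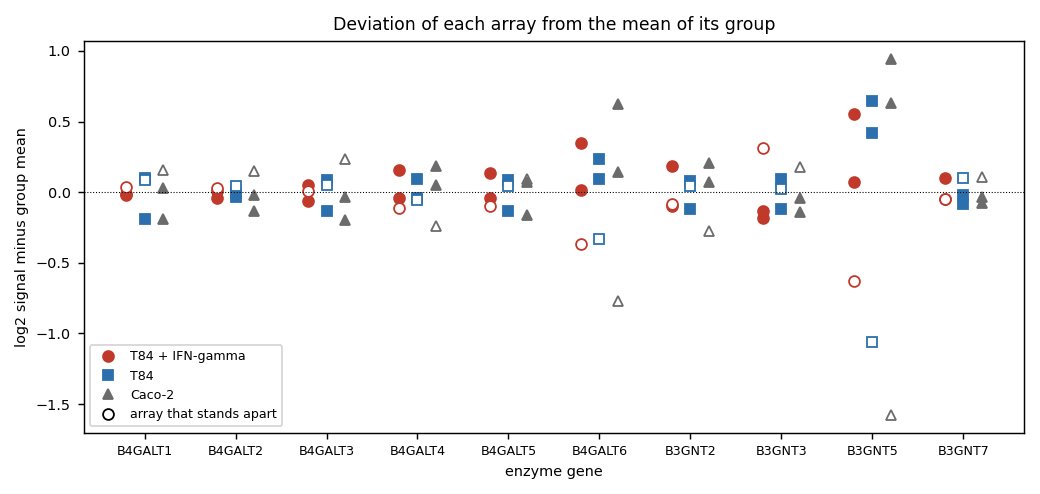
Log2 signal minus the mean of its group for each of the 10 enzymes on the 9 arrays, with a colour and shape per group and open symbols for the 3 arrays that stood apart. Over the open symbols B3GNT5 averaged -1.09 and B4GALT6 -0.49, while B3GNT3 averaged 0.17.

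The standard deviation within groups, pooled over the 3 groups, was 1.016 for B3GNT5 and 0.489 for B4GALT6, the 7th and 34th largest of the 1259 probe sets. The other 8 members had pooled standard deviations of 0.089 to 0.195, against a median of 0.099 over all probe sets. On the 3 arrays that stood apart B3GNT5 deviated from its group mean by -0.626, -1.062 and -1.575, and B4GALT6 by -0.364, -0.332 and -0.768. Of the 10, 3 (B4GALT4, B4GALT6 and B3GNT5) were the lowest of their group on all 3 of these arrays, as were 9.61% of all probe sets, and B4GALT2 was the highest on all 3, as were 13.7%. The mean deviation of B3GNT5 on these arrays was the 6th lowest of all probe sets. The 50 ribosomal protein probe sets had a median deviation of 0.002 there, and the median of all was 0.024. What set these arrays apart was not tested.

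B3GNT5 was the one member with group means at least 1 log2 unit apart, at 1.39. The genes whose signal followed it most closely over the 9 arrays were GALNT3, which starts mucin-type O-glycans, at Pearson r = 0.993, HS6ST2, a heparan sulfate sulfotransferase, at 0.99, and the transcription elongation factor gene TCEA1 at 0.98. The 9 points share the 3 arrays that stood apart. GALNT3, for example, read 6.66 on Caco-2 replicate 1 and 9.25 on replicate 2.

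Of 93 other genes of the pathway that were listed, 81 were measured. Interferon gamma changed 7 of the 81, 3 higher and 4 lower, where 10.2% of all probe sets passed. Against Caco-2 cells 17 were higher and 28 lower in treated T84 cells, and 19 higher and 26 lower in untreated T84 cells. Of all probe sets 45.6% passed with treated cells, 19.4% higher and 26.2% lower. With untreated cells 43.7% passed, 19.5% higher and 24.2% lower. The counts of single lists below are to be read beside these shares. Median log2 differences over the 81 were -0.004, 0.002 and -0.007. The interferon count was 11 without Caco-2 replicate 1, where 178 of all probe sets passed, against 128 with all arrays. The split against Caco-2 cells moved with ribosomal centring, to 46 higher and 22 lower of the 81 in treated T84 cells. In untreated T84 cells it was 40 higher and 22 lower. Of all 1259 probe sets, 795 were then higher and 227 lower with treated cells, and 675 higher and 232 lower with untreated cells. Centring on array medians gave 17 higher and 28 lower of the 81 with treated cells, and 20 higher and 24 lower with untreated cells.

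**Figure D4:**
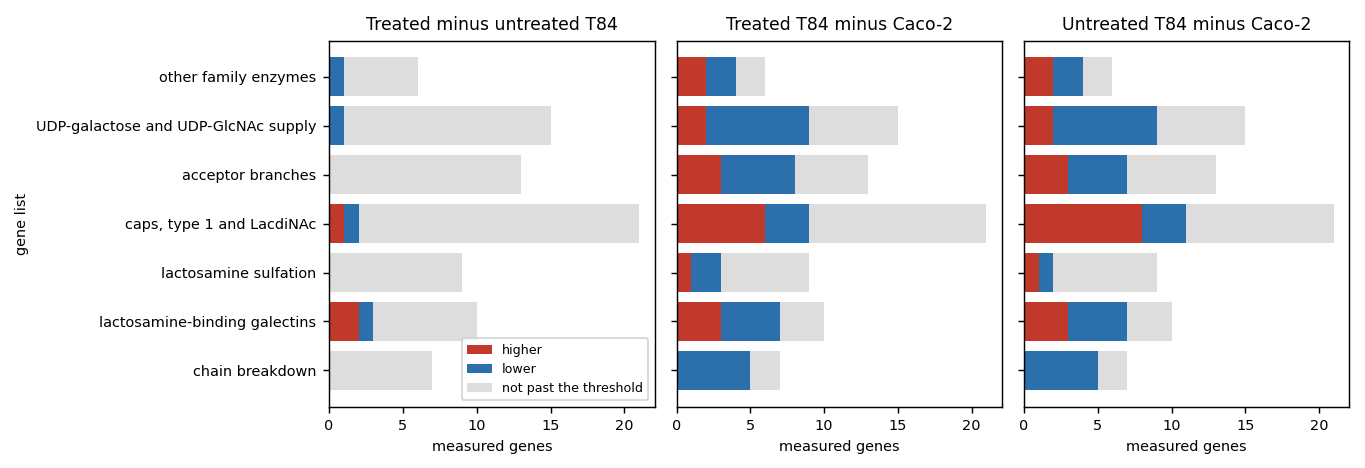
Number of other lactosamine pathway genes called higher or lower at a limma adjusted p below 0.05, by list and comparison (n = 3 arrays per group). The chain breakdown list had 0 higher and 5 lower of 7 in both comparisons with Caco-2 cells on the deposited scale, and 2 higher and 5 lower or 1 higher and 4 lower with ribosomal centring.

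Among the other enzymes of the B4GALT and B3GNT families, 6 were measured. Against Caco-2 cells 2 were higher and 2 lower in each comparison, and 4 higher and 2 lower with ribosomal centring. B4GAT1, once named as a B3GNT and now known to prime matriglycan on dystroglycan, read 8.36, 8.48 and 8.55 in treated T84, 9.09, 8.86 and 9.25 in untreated T84 and 10.67, 10.28 and 10.40 in Caco-2 cells. The groups were fully separate in that order. Interferon gamma lowered it 1.52-fold (limma adjusted p = 0.0183), a call that was lost without treated replicate 1 (0.0685) or 2 (0.0642) or untreated replicate 1 (0.0711) or 3 (0.0668). It was 3.97-fold lower in treated T84 (adjusted p = 2.81e-06) and 2.61-fold lower in untreated T84 (adjusted p = 3.35e-05) than in Caco-2 cells, and those calls held in all 20 alternatives tried.

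B3GNT9 was also lower in T84 than in Caco-2 cells, at -0.66 in treated and -0.57 in untreated cells (limma adjusted p = 0.000157 and 0.000457). B4GALT7, which builds the linker of proteoglycans, was higher at 0.30 and 0.33 (adjusted p = 0.00436 and 0.00248). The probe sets of B3GNT9 and B4GALT7 match several transcripts. B3GNT8, which partners B3GNT2, made up the count, higher at 0.23 and 0.28 (adjusted p = 0.0282 and 0.0108). It was named after its values were seen, and the treated call was lost without treated replicate 3 (0.0969) or Caco-2 replicate 2 (0.0846) or 3 (0.0892).

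Of the 15 measured genes that supply UDP-galactose and UDP-N-acetylglucosamine, 1 fell with interferon gamma and 2 were higher and 7 lower in T84 than in Caco-2 cells, in treated and untreated cells alike in number. With ribosomal centring they were 5 higher and 5 lower with treated and 3 higher and 6 lower with untreated cells. PGM1, a phosphoglucomutase, read 9.52, 9.54 and 9.57 with and 10.17, 10.19 and 10.16 without interferon gamma, a difference of -0.63 (limma adjusted p = 0.0016). SLC35D2, a transporter of UDP-N-acetylglucosamine into the Golgi, was lower in T84 at -1.08 and -0.96, and SLC35B4, which carries the same sugar, at -1.96 and -1.97. The T84 signals of SLC35B4 were dim, at 5.12 to 5.33.

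Among 13 measured genes that build the branches on which lactosamine is placed, 0 passed with interferon gamma, and 3 were higher and 5 lower in treated and 3 higher and 4 lower in untreated T84. With ribosomal centring they were 6 higher and 3 lower, and 5 higher and 3 lower. GCNT2, the I-branching enzyme of poly-N-acetyllactosamine, was lower in T84 at -3.45 and -3.57, and its probe set matches several transcripts. GCNT3, a mucin branching enzyme, was higher at 2.02 and 1.98. These differences exceed every called difference among the 10 enzymes, the largest of which was 0.91 for B3GNT3.

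Among 21 measured genes for caps and competing chains, FUT4, a fucosyltransferase, rose by 0.56 with interferon gamma (limma adjusted p = 0.00797) and ST3GAL4, a sialyltransferase of lactosamine ends, fell by 0.548 (adjusted p = 0.0139). The ST3GAL4 call was lost without treated replicate 1 (0.0543) or 2 (0.0589) or untreated replicate 3 (0.0573). Against Caco-2 cells 6 and 8 of the 21 were higher and 3 were lower in each comparison, and with ribosomal centring 17 higher and 2 lower with treated and 16 higher and 3 lower with untreated cells. The largest differences on the deposited scale included FUT3, the Lewis fucosyltransferase, at 3.04 and 3.27, and ST3GAL6 at -3.05 and -3.17. The ST3GAL6 probe set matches several transcripts. Its T84 signals of 3.45 to 3.82 lay below the lower quartile of all values of 5.33.

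Of 9 measured sulfation genes 0 passed with interferon gamma, and against Caco-2 cells 1 was higher and 2 lower with treated cells and 1 higher and 1 lower with untreated cells. With ribosomal centring these were 7 higher and 1 lower, and 6 higher and 1 lower. CHST7, an N-acetylglucosamine sulfotransferase, was higher in T84 at 3.08 and 2.90. Of 10 measured galectins, a family with members that bind these chains, 2 rose and 1 fell with interferon gamma. LGALS9 went up by 0.43 and LGALS13 by 0.28, and LGALS4 went down by 0.53. The LGALS13 signals were dim, at 5.03 to 5.08 with and 4.76 to 4.83 without interferon gamma, below the lower quartile of all values of 5.33. Against Caco-2 cells 3 were higher and 4 lower in each comparison, and 5 higher and 4 or 3 lower with ribosomal centring. Of 7 measured lysosomal enzymes that break the chains down, 0 were higher and 5 lower in T84 in each comparison. Of all probe sets 26.2% were lower with treated and 24.2% with untreated cells. GALNS, a lysosomal sulfatase, stood at -1.54 and -1.42. GLB1, the lysosomal galactosidase, stood at -1.13 and -0.89, and its probe set matches several transcripts. None of the 7 passed with interferon gamma.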

How the data were processed

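RNA from 9 samples of T84 and Caco-2 cells was labelled as biotinylated cRNA and hybridised to an Affymetrix array, per the labels' protocols, from 0.5 ug of total RNA. The authors deposited log2 signals per probe set, made with RMA per the submitters' processing notes; which version was run, on which probe sets and on which genome build is not given in the sources used here. RMA usually gives arrays one common distribution, which can hide a shift of all genes in one line. Of 1259 probe sets, 1043 were named through RefSeq accessions with 1 symbol and 216 were not. The values were fitted as deposited with limma 3.58.1 in R 4.3.3 (group means over all 9 arrays, eBayes, 6 residual and 2.12 prior degrees of freedom, Benjamini-Hochberg over 1259 probe sets, 95% intervals). The fit was tested on simulated data. Python 3.11.15, pandas 2.3.3 and matplotlib 3.10.9 made tables and plots. Probe sets with the suffix a (B4GALT3, B4GALT4) match several transcripts of a gene, and with s (B3GNT7) are shared among transcripts. All 10 members are named. Of the pathway lists, at most 3 genes per list and comparison with the largest called difference are named, and for a member with group means 1 log2 unit apart the 3 genes of highest Pearson r. Members and lists were chosen with earlier results of these data known. Alternatives were 6-array fits, a replicate block, robust moderation, array weights, centring on array medians or ribosomal genes, leaving out dim or shared probe sets, gene means, a threshold of 0.01, each array left out in turn, and, chosen after seeing the data, 3 arrays left out together. A promoter of B4GALT6 and protein sequences were not used here.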

Additional observations from a re-analysis of the deposited data

How the results depend on the processing

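Of the 20 alternatives, array weights raised the members called to 8 with treated and 6 with untreated T84 against Caco-2 cells. A threshold of 0.01 lowered both to 1. The whole array moved too, with 760 and 665 of the 1259 probe sets called with array weights and 457 and 437 at 0.01. Leaving out single arrays gave 0 to 0 members called with interferon gamma and 1 to 6 in each comparison with Caco-2 cells. It gave 5 to 11, 39 to 53 and 39 to 50 pathway genes. All probe sets called were then 86 to 178, 521 to 640 and 480 to 600 in the 3 comparisons. Pathway genes called with interferon gamma were 12 in the 6-array fit and 14 with array weights, where 166 and 231 of all probe sets passed. With treated T84 against Caco-2 cells they were 68 when centred on ribosomal genes, where 1022 of all passed. Same-numbered deviations correlated at 0.386, -0.024 and 0.561 between the T84 groups, and at -0.643 to 0.473 between T84 and Caco-2 arrays. Between the T84 groups, arrays of unlike number correlated at -0.512 to 0.397, so whether replicate numbers pair the T84 arrays is not settled. The replicate block spanned all 9 arrays and did not test pairing within T84 cells alone. With the replicate block 2 members were called with treated T84 against Caco-2 cells, and 109, 534 and 499 probe sets were called in the 3 comparisons against 128, 574 and 550.

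Sign changes were found for uncalled members. With interferon gamma, B4GALT2 was at 0.00021 with array weights and 0.068 with ribosomal centring, and B4GALT5 at 0.053 with ribosomal centring and 0.049 without the 3 arrays. Ribosomal centring put B3GNT2 at 0.014 and 0.066 against Caco-2 cells, B3GNT7 at 0.177 and B4GALT3 at 0.11 with untreated T84. There B3GNT7 was also at 0.013 with array weights and 0.021 with array medians, and B4GALT3 at 0.008 without the 3 arrays. Leaving out single arrays moved the interferon differences of B4GALT1 from -0.072 to 0.074, B4GALT2 from -0.026 to 0.013, B4GALT5 from -0.092 to 0.025 and B3GNT5 from -0.062 to 0.792. Against Caco-2 cells it moved B4GALT3 from -0.022 to 0.193 with treated and -0.182 to 0.033 with untreated T84, and B3GNT7 from -0.068 to 0.038 with untreated T84. The cause was not tested.

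The B4GALT6 signals lie around the lower quartile of all values, 5.33, and the Caco-2 signals of B3GNT3 not far above it. At such levels array differences can understate changes in RNA. With 3 arrays a group, small differences were not detectable for B3GNT5 and B4GALT6.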
